A study of Mus musculus with 11 samples.

Results

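The 8 genes described here encode regulators of actin filament growth: the Ena/VASP paralogs Enah, Vasp and Evl, the profilins Pfn1 and Pfn2, the formins Fmnl1 and Diaph1, and the Arp2/3 activator Was. They were taken by gene symbol, 8 of the 57186 gene entries of the count table. Enah was chosen by its measured counts in these same libraries, where it was among the genes higher in ZsGreen-positive than in ZsGreen-negative lung cells, and the other 7 were added as its paralogs and partners. The difference between the 2 lung groups is therefore given for these genes as a description with no test, while the comparisons with thymic cells are tested.

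The libraries were bulk RNA sequencing of sorted cells from untreated Cd3giCreRosa26stopZsGreen mice, all 14 days old. In these mice Cre recombinase tied to Cd3g removes a stop sequence ahead of the ZsGreen reporter at Rosa26, so that a cell is labelled when it, or a cell it descends from, expressed Cre. There were 5 libraries of ZsGreen-negative lung ILC2 (group 2 innate lymphoid cells), 3 of ZsGreen-positive lung ILC2 and 3 of thymic DN3 cells (T cell precursors at the CD4 and CD8 double-negative 3 stage), and all groups carried the same alleles. A ZsGreen-negative cell shows only that the reporter was not switched on, and whether DN3 cells were sorted by ZsGreen is not given in the sources used here. By the dates in the labels the lung libraries fall into a 2024 batch, with ZsGreen-negative numbers 1 to 4 and ZsGreen-positive numbers 1 and 2, and a 2025 batch with the remaining library of each group. The DN3 libraries carry a date of their own.

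Ena/VASP proteins bind the growing end of an actin filament, protect it from capping and feed it with actin monomers delivered by profilin. Formins use profilin-bound actin in the same way to build unbranched filaments, while proteins of the WASP family switch on the Arp2/3 complex, which starts branches. Lymphocytes rely on these machines to migrate and to form contacts with other cells, and Vasp and Evl are the Ena/VASP members usually described in them, whereas Enah is better known from neurons, fibroblasts and epithelial cells.

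The regions just upstream of the 3 paralogs are shown because the paralogs differed so widely in level. Each is the 250 bases before a RefSeq transcript start (GRCm38.p6, strand-oriented, 5′ to 3′): Enah at chr1:182019981-182020230 (minus strand), Vasp at chr7:19271855-19272104 (minus strand) and the first of the Evl starts at chr12:108554470-108554719 (plus strand). Capitals mark matches, on either strand, to GGGCGG, the core of the GC box.
Enah: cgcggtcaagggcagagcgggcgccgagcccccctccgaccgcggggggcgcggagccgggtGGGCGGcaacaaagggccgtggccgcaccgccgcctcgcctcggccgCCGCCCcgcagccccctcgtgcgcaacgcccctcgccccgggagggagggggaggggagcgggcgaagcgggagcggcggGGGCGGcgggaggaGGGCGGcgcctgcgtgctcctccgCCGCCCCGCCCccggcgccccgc
Vasp: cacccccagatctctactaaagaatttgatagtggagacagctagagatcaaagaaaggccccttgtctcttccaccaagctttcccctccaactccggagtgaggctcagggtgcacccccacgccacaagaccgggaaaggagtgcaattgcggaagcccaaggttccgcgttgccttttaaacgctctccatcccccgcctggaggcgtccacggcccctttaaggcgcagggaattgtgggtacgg
Evl: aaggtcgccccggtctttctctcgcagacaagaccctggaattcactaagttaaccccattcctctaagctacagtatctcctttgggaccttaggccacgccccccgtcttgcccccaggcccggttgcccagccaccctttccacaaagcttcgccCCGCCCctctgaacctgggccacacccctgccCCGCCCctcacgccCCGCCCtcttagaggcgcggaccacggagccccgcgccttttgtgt
The Enah region was 84.8% G or C, which exceeded 99.8% of the 32851 regions of this length in the table (median 52.4%), and held 42 CpG pairs against a median of 6. It carried 6 GC-box matches, 2 of which overlap by a base. The first Evl region was 64.0% G or C with 16 CpG pairs and 3 GC-box matches, and the second Evl start (chr12:108605516-108605765) had 49.2%, 2 CpG pairs and no match. The Vasp region was 57.2% G or C with 12 CpG pairs and no match. A GC-box match, which is a run of letters and not a shown binding site, was found in 32.74% of all such regions. Both strands were also searched for GGAAGT, the core of ETS sites, which 19.74% of all regions held. The Runx-type core TGTGGT was found in 14.05% of regions. The GATA-type core AGATAA was found in 9.99%, and the CArG box in 1.47%. None of these occurred in the 4 Ena/VASP regions. Of the other members, Fmnl1 held 1 ETS-type and 3 GC-box matches, Pfn1 2 and Pfn2 1 GC-box match, and Was 1 ETS-type and 1 Runx-type match. The region of Diaph1 is not reported here.

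Total counts were 4495260 to 14424313 in ZsGreen-negative, 5762491 to 17627469 in ZsGreen-positive and 5951494 to 7745062 in DN3 libraries, so that 1 count stood for 0.0567 to 0.222 counts per 1000000 before scaling between libraries. Levels are given as CPM, counts per 1000000 after that scaling. The labelled cell types were checked against their defining genes. Il1rl1 and Areg, an alarmin receptor chain and a growth factor of ILC2, were at 2564 to 3544 and 1494 to 2076 CPM in lung libraries and at 0 in every DN3 library, while Ptcra and Rag2, the pre-TCR alpha chain and a recombinase subunit, were at 0 in every lung library and at 133 to 145 and 67.0 to 75.8 CPM in DN3. Of the 8 DN3 markers followed, Hes1 alone went the other way, at 69.4 to 70.6 CPM in DN3 and 81.15 to 163.1 CPM in lung libraries. Markers of lung structural cells were detected in the sorted lung libraries, and whether this RNA came from such cells or from the sorted cells was not tested. The 35 epithelial, endothelial and stromal markers together reached 541 to 1584 CPM in the ZsGreen-negative group and 1392 to 3355 CPM in the ZsGreen-positive group, with none of the 35 at 0 across either lung group, and to 234 to 263 CPM in DN3, where 12 of the 35 were at 0 in all libraries. Of the 3 lists only the endothelial one overlapped between lung and DN3. It reached 79.5 to 153.5 CPM in ZsGreen-negative, 148 to 181 in ZsGreen-positive and 97.5 to 114 in DN3 libraries. Of the 33 tested markers 6 were called higher in ZsGreen-positive cells and 0 lower in edgeR's quasi-likelihood test. Among all tested genes 2.35% were called higher and 2.18% lower. The markers' median log2 difference was 1.19, against -0.0006 over all tested genes.

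Enah encodes Mena, the founding mammalian relative of the fly protein Enabled. In ZsGreen-negative ILC2 its level was 20.5, 19.5, 21.7, 17.9 and 16.1 CPM in libraries 1 to 5, in ZsGreen-positive ILC2 it was 59.6, 61.0 and 43.6 CPM, and in DN3 cells 0.705, 0.753 and 0.935 CPM. The 3 groups did not overlap: every ZsGreen-positive library stood above every ZsGreen-negative one, and DN3 libraries were far below both. The group means were 19.1 ± 2.21 (SD, n = 5), 54.7 ± 9.64 (SD, n = 3) and 0.798 ± 0.121 CPM (SD, n = 3). Between the lung groups the fitted difference was 1.56 ± 0.11 (SE) on the log2 scale, or 2.94-fold. It was 3.03-fold within the 2024 batch (2 against 4 libraries) and 2.71-fold within the 2025 batch (1 against 1). The lung differences of the other 7 genes ran from -0.04 to 0.31 on this scale.

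The structural markers moved with the same groups, and their part in Enah's difference was not tested. ZsGreen-negative library 3 had a higher summed marker level (1584 CPM) than ZsGreen-positive library 1 (1392 CPM), and its Enah level was 21.7 against 59.6 CPM. ZsGreen-positive library 3 had the highest marker sum (3355 CPM) and the lowest Enah level of its group (43.6 CPM). With the markers' mean log2 level as a further term in the fit, Enah's log2 difference was 1.48 ± 0.19 (SE). Macrophage markers (8 genes) together reached 55.5 to 148 CPM in the ZsGreen-negative group and 112 to 234 CPM in the ZsGreen-positive group, and those of alpha-beta T cells (6 genes) 10.02 to 13.1 and 9.13 to 13.96 CPM. B cell markers (5 genes) reached 16.6 to 18.4 and 16.1 to 40.0 CPM, with 1 of the 4 tested called higher, against 2.35% of all tested genes. None of the 6 tested macrophage markers or the 3 tested alpha-beta T cell markers was called.

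**Figure D1:**
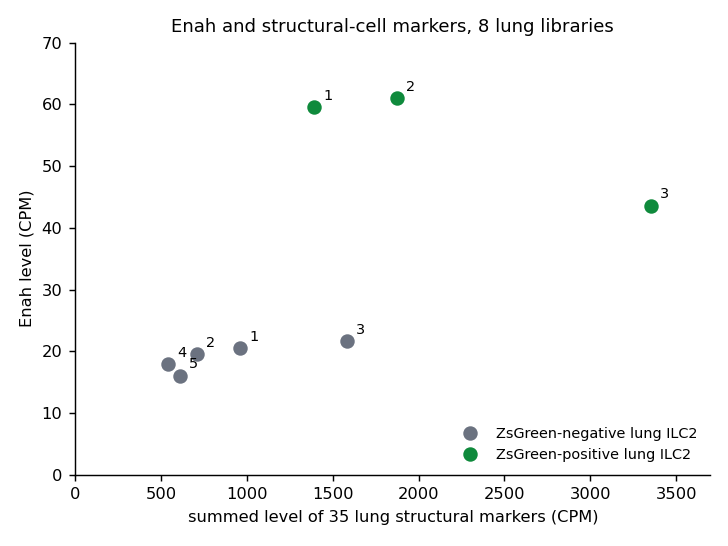
Enah level (vertical axis, CPM) against the summed level of 35 lung structural markers (horizontal axis, CPM) in the 8 lung libraries, 1 point per library with its replicate number. The 3 ZsGreen-positive libraries lie at 43.6 to 61.0 CPM of Enah and the 5 ZsGreen-negative ones at 16.1 to 21.7 CPM, while the 2 groups overlap on the marker axis.

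Vasp, the vasodilator-stimulated phosphoprotein, was the most abundant paralog per kb in all groups. Its level was 325, 306, 331, 361 and 330 CPM in the ZsGreen-negative group, 316, 324 and 326 CPM in the ZsGreen-positive group and 65.3, 70.2 and 70.5 CPM in DN3 libraries. The lung groups overlapped fully and DN3 stood apart below them. The log2 difference between the lung groups was -0.04 ± 0.08 (SE).

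Evl, the Ena/VASP-like protein, was at 144, 124, 127, 134 and 152 CPM in the ZsGreen-negative group, 153, 152 and 176 CPM in the ZsGreen-positive group and 14.4, 15.6 and 17.4 CPM in DN3 libraries. The lung groups did not overlap, but only just, with 151.7 CPM as the highest ZsGreen-negative and 152.3 CPM as the lowest ZsGreen-positive value. The log2 difference between the lung groups was 0.21 ± 0.08 (SE), 1.152-fold within the 2024 batch and 1.16-fold within the 2025 batch. Exons of Evl share 278 bases with Degs2 on the opposite strand, which had 5 to 109 counts. Whether counting used the strand is not given in the sources used here, so that reads of this stretch cannot be assigned with certainty.

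Of the 8 genes, Enah alone was called between the lung groups, where 4.52% of 13771 tested genes were called, and Enah and Evl were the 2 whose lung groups did not overlap, as was true of 10.2% of tested genes. Because the choice of genes drew on this comparison, nothing is read from these counts.

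Paralog use was compared as each paralog's share of the 3, after dividing counts by the length of the gene model (21.45 kb of exons for Enah, 2.62 kb for Vasp and 2.94 kb for Evl, from GENCODE M21). In ZsGreen-negative ILC2 the shares were 0.517 ± 0.076% Enah, 72.8 ± 1.8% Vasp and 26.7 ± 1.8% Evl (SD, n = 5). In ZsGreen-positive ILC2 they were 1.42 ± 0.29% Enah, 68.3 ± 1.3% Vasp and 30.3 ± 1.6% Evl (SD, n = 3). Enah was thus a minor part of the family's RNA in both lung groups, also with the longest transcript of each gene as its length (0.802 ± 0.118% and 2.19 ± 0.44%). No share overlapped between the lung groups, although the Evl share did when counts were not divided by length (26.2 to 30.5% against 28.4 to 32.3%). The summed level of the family overlapped between them, at 160 to 185 CPM per kb in the ZsGreen-negative and 175.5 to 186.4 CPM per kb in the ZsGreen-positive group.

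DN3 cells had both less of the family and another balance. The sum was 29.9, 32.2 and 32.9 CPM per kb. The shares were 0.117 ± 0.013% Enah, 82.9 ± 0.9% Vasp and 16.96 ± 0.91% Evl (SD, n = 3), so that Vasp exceeded Evl by 4.55 to 5.10 times per kb, against 2.08 to 3.02 times in lung libraries. DN3 minus all 8 lung libraries, the Enah share differed by -0.739, the Vasp share by 11.83 and the Evl share by -11.09 percentage points. Each DN3 library lay outside the lung range for all 3 shares. The 3 shares of a library add up to 100%, so these are not separate results. The exact two-sided permutation test gave p = 0.01212 for the Vasp and the Evl share, the smallest value that 3 against 8 libraries allow, and 0.01212 after Benjamini-Hochberg adjustment over the 5 shares and ratios computed. The Enah share is given with no p, since Enah had at most 8 counts in a DN3 library. Without division by length, the Enah share differed by -5.37 points.

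**Figure D2:**
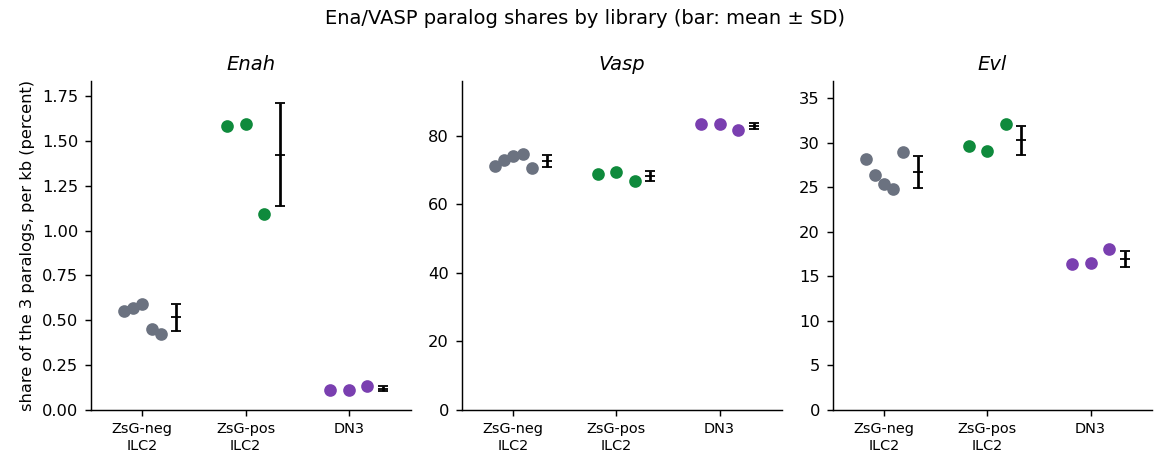
Share of Enah, Vasp and Evl in their summed level per kb (vertical axes, percent, each starting at 0), 1 point per library, with mean ± SD beside each group. DN3 libraries have the highest Vasp and the lowest Enah and Evl shares, and ZsGreen-positive ILC2 the highest Enah shares (1.09 to 1.60%).

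Profilins bind actin monomers and hand them to Ena/VASP proteins and formins. Pfn1, the general form, had the highest level per kb of the 8 genes in every group. It was at 922, 1084, 841, 1146 and 951 CPM in the ZsGreen-negative group, 951, 829 and 1200 CPM in the ZsGreen-positive group and 574, 573 and 573 CPM in DN3 libraries. The lung groups overlapped fully, and all DN3 libraries were below all lung libraries. The log2 difference between the lung groups was -0.02 ± 0.12 (SE).

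Pfn2, the form best known from neurons, was rare. It was at 5.00, 5.19, 4.39, 5.63 and 4.5 CPM in the ZsGreen-negative group, 8.98, 4.25 and 4.77 CPM in the ZsGreen-positive group and 0.705, 0.753 and 0.818 CPM in DN3 libraries, which rests on 18 to 80 counts per lung library and 5 to 7 per DN3 library. ZsGreen-positive library 1 stood apart, and the other 2 lay within or below the ZsGreen-negative range. The log2 difference between the lung groups, 0.31 ± 0.26 (SE), was -0.09 without that library and 0.73 with the structural marker level as a term. Within batches it was 1.31-fold (2024) and 1.06-fold (2025).

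The balance of the 2 profilins was taken per library as log2 of Pfn2 over Pfn1, with 0.1 CPM added to each. Its mean was -7.61 ± 0.08 in ZsGreen-negative (SD, n = 5), -7.41 ± 0.63 in ZsGreen-positive (SD, n = 3) and -9.39 ± 0.10 in DN3 libraries (SD, n = 3). The lung groups overlapped and DN3 lay below both. DN3 minus lung was -1.85, or -1.05 when 1 CPM was added instead, which is more than the level of Pfn2 in DN3. This difference is a description with no p, since Pfn2 had at most 7 counts in a DN3 library. Pfn1 exceeded Pfn2 by 156 to 370 times per kb in lung and 1030 to 1199 times in DN3 libraries.

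Fmnl1 is a formin made mainly in blood cells, and Diaph1 encodes mDia1, a broadly expressed formin. Fmnl1 was at 792, 704, 785, 798 and 838 CPM in the ZsGreen-negative group, 782, 854 and 875 CPM in the ZsGreen-positive group and 229, 221 and 233 CPM in DN3 libraries. Diaph1 was at 421, 403, 376, 393 and 442 CPM in the ZsGreen-negative group, 409, 436 and 451 CPM in the ZsGreen-positive group and 175, 176 and 171 CPM in DN3 libraries. For both formins the lung groups overlapped and DN3 lay below them, with log2 differences between the lung groups of 0.08 ± 0.09 (SE) for Fmnl1 and 0.07 ± 0.08 (SE) for Diaph1. Exons of Fmnl1 share 120 bases with Gm20511 on the opposite strand, an unnamed gene model with 5 to 88 counts.

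The balance of the formins, log2 of Fmnl1 over Diaph1, was 0.95 ± 0.10 in ZsGreen-negative (SD, n = 5), 0.95 ± 0.02 in ZsGreen-positive (SD, n = 3) and 0.39 ± 0.06 in DN3 libraries (SD, n = 3). It was higher in all 8 lung libraries than in any DN3 library. The difference, DN3 minus lung, was -0.56 (exact two-sided permutation p = 0.01212, adjusted 0.01212 over the 5 tests). Per kb, Fmnl1 exceeded Diaph1 by 2.27 to 2.71 times in lung and 1.64 to 1.77 times in DN3 libraries.

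Was encodes the Wiskott-Aldrich syndrome protein, which links Cdc42 to the Arp2/3 complex in blood cells. It was at 185, 178, 164, 174 and 164 CPM in the ZsGreen-negative group, 180, 168 and 164 CPM in the ZsGreen-positive group and 118.1, 124.9 and 122.3 CPM in DN3 libraries. The lung groups coincided in range, with a log2 difference of 0.00 ± 0.08 (SE). DN3 libraries were lower than every lung library.

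**Figure D3:**
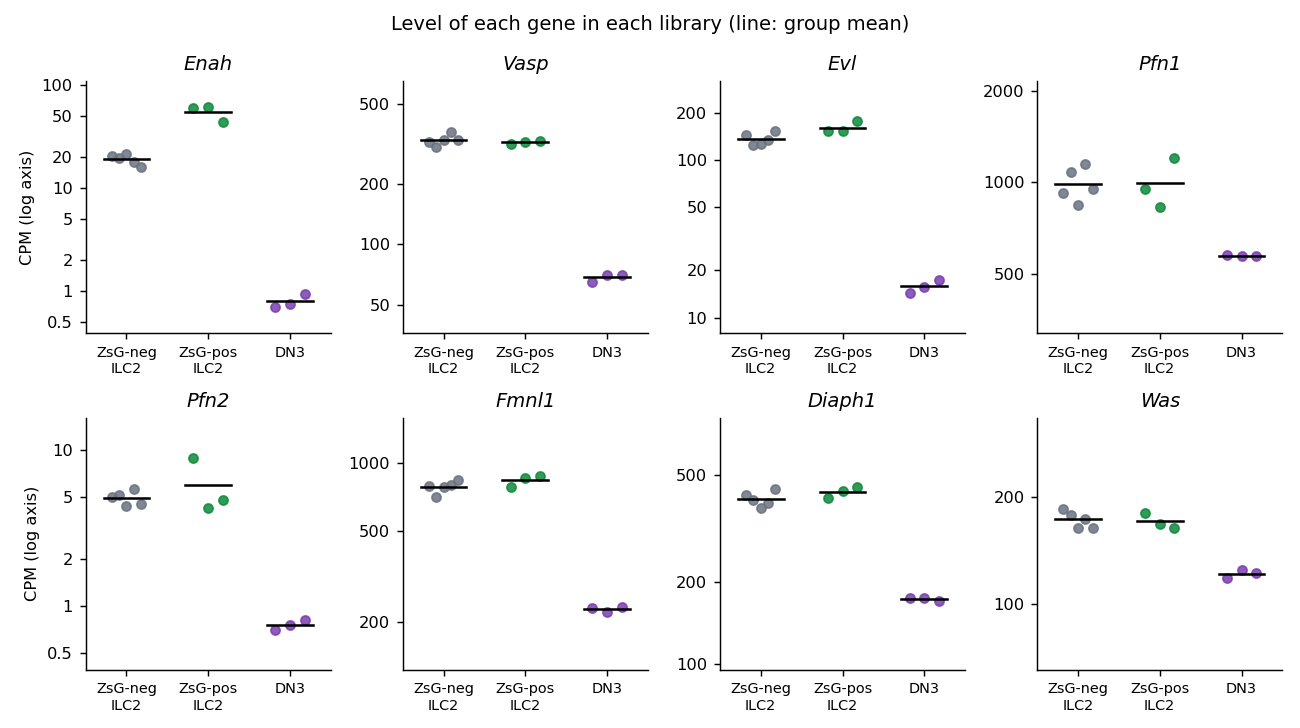
Level of each of the 8 genes (vertical axes, CPM, log scale, with its own range in each panel) in the 5 ZsGreen-negative ILC2, 3 ZsGreen-positive ILC2 and 3 DN3 libraries, 1 point per library and a line at the group mean. Every gene is lowest in DN3, and the lung groups do not overlap for Enah (16.1 to 21.7 against 43.6 to 61.0 CPM) and, by a narrow margin, for Evl.

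Thymic DN3 cells were then compared with lung ILC2 in a fit of all 11 libraries. All 8 genes were called lower in DN3 than in all lung ILC2 by edgeR's quasi-likelihood test with Benjamini-Hochberg adjustment over 15132 genes, where 42.1% of tested genes were called lower. The DN3 range lay below all lung libraries for the 8, as for 36.7% of tested genes. Enah and Pfn2 never reached 10 counts in a DN3 library (5 to 8 and 5 to 7 counts), so they entered the fit only through their lung level and had to differ. For that reason the count over the 8 is a description, and the differences of these 2 genes are given with no p.

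The size of the difference varied from gene to gene. Enah was lower by 34.4 times, with a log2 fold change of -5.10 ± 0.22 (SE). Its SE was larger with other tools, at 0.35 with DESeq2 and 0.45 with limma voom, so the edgeR value may overstate the precision. Evl followed among the paralogs at -3.20 ± 0.11 (adjusted p = 1.96e-17, edgeR), and Vasp at -2.25 ± 0.08 (adjusted p = 1.17e-16, edgeR), a 4.76-fold lower level. Of the profilins, Pfn2 differed by -2.77 ± 0.34 (SE) and Pfn1 by -0.79 ± 0.11 (adjusted p = 1.04e-06, edgeR). Among the formins the log2 fold change was -1.82 ± 0.09 for Fmnl1 (adjusted p = 1.1e-14, edgeR) and -1.26 ± 0.08 for Diaph1 (adjusted p = 1.74e-12, edgeR). Was differed least, by -0.50 ± 0.07 (adjusted p = 1.72e-06, edgeR), a 1.41-fold lower level. The median over all 15132 tested genes was -0.09. With upper-quartile scaling it was 0.01, a shift of 0.10 towards higher values in DN3 that moved the Was value to -0.39. The 6 members that reached 10 counts in DN3 kept their calls under it.

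Set against each lung group alone, the values stood side by side as follows, with the same DN3 libraries in both comparisons. Enah differed by -4.53 ± 0.23 (SE) from ZsGreen-negative and by -6.06 ± 0.23 from ZsGreen-positive ILC2. In both comparisons the SE of Enah was 0.36 with DESeq2 and 0.45 with limma voom. Evl differed by -3.11 ± 0.11 and -3.34 ± 0.11, and Vasp by -2.27 ± 0.09 and -2.23 ± 0.09. The other 5 ran from -2.67 (Pfn2) to -0.50 (Was) and from -2.94 (Pfn2) to -0.49 (Was). All 8 were called lower in each, where 41.2% and 40.3% of tested genes were. These counts are again a description, since Enah and Pfn2 had to differ. For every comparison with DN3, tissue and batch cannot be told apart, since these libraries form a batch and a tissue of their own, and in bulk RNA fewer cells that express a gene and less RNA per cell cannot be told apart either.

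**Figure D4:**
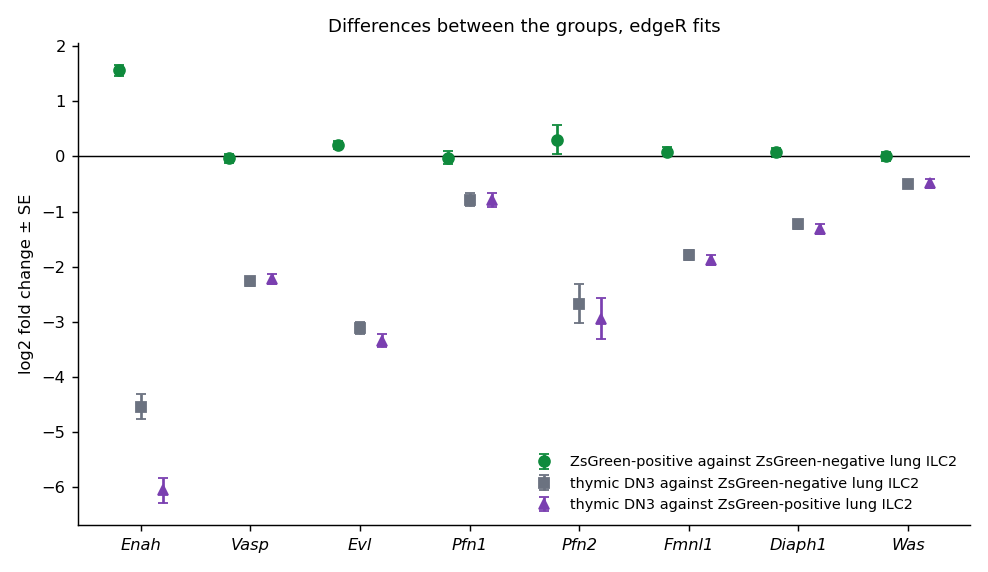
Log2 fold change ± SE (vertical axis) of the 8 genes for ZsGreen-positive against ZsGreen-negative lung ILC2 (circles) and for DN3 against each lung group (squares and triangles, sharing the DN3 libraries). Enah has the largest value in all 3 (1.56, -4.53 and -6.06), and Was stays nearest to 0.

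The order of the 8 genes per kb differed between the tissues. In both lung groups it ran Pfn1, Fmnl1, Vasp, Was, Diaph1, Evl, with Pfn2 and Enah last, and the neighbours Was and Diaph1 overlapped (72.5 ± 3.8 and 64.2 ± 4.0 CPM per kb in ZsGreen-negative, SD, n = 5). Pfn2 (1.396 ± 0.144 CPM per kb) stood above Enah (0.892 ± 0.103) in ZsGreen-negative cells. In ZsGreen-positive cells Enah was at 2.55 ± 0.45 and Pfn2 at 1.70 ± 0.73 CPM per kb (SD, n = 3), with overlapping ranges. In DN3 cells the order was Pfn1, Was, Fmnl1, Diaph1, Vasp, Evl, Pfn2, Enah, and no neighbours overlapped. There Was (51.1 ± 1.4 CPM per kb, SD, n = 3) exceeded Vasp (26.2 ± 1.1) by 1.91 to 1.99 times, whereas in lung libraries it reached 0.528 to 0.639 times the Vasp level. With the longest transcript as the length, Fmnl1 and Was, and Vasp and Diaph1, exchanged places in DN3 and overlapped, so these neighbours are not ordered firmly. With that length Pfn2 and Enah overlapped in ZsGreen-negative cells (1.873 to 2.404 and 1.432 to 1.931 CPM per kb). In ZsGreen-positive cells they then did not (1.815 to 3.836 and 3.885 to 5.432), so whether these 2 overlap depends on the length used.

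Beside these members, 74 other actin genes in 6 lists were followed. In the lung comparison 67 of them were tested, of which 5 were called higher and 2 lower in ZsGreen-positive cells (7.46% and 2.99%, against 2.35% and 2.18% of all tested genes, edgeR's quasi-likelihood test). Among the 8 EVH1 ligands and adaptors, which Ena/VASP proteins bind or meet at adhesions, Fyb1, the adaptor ADAP, rose from 128 ± 16 to 198 ± 14 CPM (log2 0.62 ± 0.10 SE, adjusted p = 0.000721, edgeR). Raph1, lamellipodin, fell from 44.6 ± 8.2 to 28.1 ± 3.0 CPM (log2 -0.66 ± 0.14 SE, adjusted p = 0.0116, edgeR). The Raph1 call did not hold without ZsGreen-negative library 5 (adjusted p = 0.122), without ZsGreen-positive library 3 (0.0985) or in the 2024 batch alone (0.105). These fits are not separate results, since the batch term takes up a 2025 library left alone in its batch. Over 17 alternatives the adjusted p of Raph1 lay between 1.2e-05 and 0.122.

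Of 11 other profilins and formins, Fmnl3, a relative of Fmnl1, was called higher (111 ± 8 against 141 ± 8 CPM, log2 0.35 ± 0.08 SE, adjusted p = 0.0199, edgeR), and Daam1, a formin of Wnt signalling, lower (28.01 ± 2.27 against 19.1 ± 2.8 CPM, log2 -0.53 ± 0.12 SE, adjusted p = 0.0162, edgeR). Fmnl3 lost its call in 7 of 17 alternatives (adjusted p 0.00721 to 0.492) and Daam1 in 6 (0.00848 to 0.609). Among these were, for both, the fits that left out library 5 of the ZsGreen-negative group (0.158 and 0.156) or, of the ZsGreen-positive group, library 2 (0.0581 and 0.0676) or library 3 (0.17 and 0.145), the 2024 batch alone (0.173 and 0.144) and the block of replicate numbers (0.131 and 0.0934). Fmnl3 also lost its call without ZsGreen-positive library 1 (0.0727). The fits without ZsGreen-negative library 5 or ZsGreen-positive library 3 nearly repeat the 2024 batch alone, so they are not separate losses. Of 18 tested WASP family genes and partners 2 were called higher, Cttn (cortactin, 9.10 ± 2.13 against 19.0 ± 2.7 CPM, adjusted p = 0.00169, edgeR) and Whamm, named here after its call was seen. Of 19 genes for capping, severing and monomer binding, Gsn (gelsolin) was called higher (32.1 ± 4.6 against 54.5 ± 10.99 CPM, adjusted p = 0.00233, edgeR). No gene was called among 9 of the Arp2/3 complex and the 2 cytoplasmic actins, by edgeR, DESeq2 or limma voom, and 0 of them had an unadjusted p under 0.05 in edgeR. With the structural marker level as a term, none of the 67 was called, and the standard errors were larger. In that fit only 13 genes were called higher and 37 lower among all tested genes, so nothing is read from this absence. The log2 difference was then 0.66 ± 0.16 (SE) for Fyb1 (adjusted p = 0.0886, edgeR) and -0.92 ± 0.20 for Raph1 (0.0544), no smaller than without the term. It was 0.36 ± 0.14 for Fmnl3 (0.492) and -0.46 ± 0.20 for Daam1 (0.609), close to the values without it. For Cttn it was 0.69 ± 0.30 (0.582), against 1.12 ± 0.19 without the term, and for Gsn 0.36 ± 0.18 (0.734), against 0.76 ± 0.13. Over the 17 alternatives the lowest adjusted p was 6.01e-09 for Fyb1, 2.35e-07 for Cttn and 5.42e-08 for Gsn.

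Against all lung ILC2, 68 of the 74 were tested and 52 were called lower in DN3 (76.5%, against 42.1% of all tested genes) and 10 higher (14.7%, against 36.7%). The 52 include Wipf3, with 1 count in each DN3 library, which entered the fit only through its lung level. Any others like it were not set aside. Lower calls were most of each list, at 7 of 8 EVH1 ligands and adaptors, 8 of 12 profilins and formins, 14 of 18 WASP family genes and partners, 7 of 9 Arp2/3 subunits, 14 of 19 capping, severing and monomer-binding genes and both actins. The higher calls were 1, 3, 2, 2, 2 and 0 in the same order.

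Of the Ena/VASP ligands, Tes, testin, fell from 128 CPM in lung to 6.18 ± 0.84 CPM in DN3 (log2 -4.36 ± 0.12 SE, adjusted p = 1.08e-18, edgeR) and Raph1 from 38.4 to 2.78 ± 0.57 CPM (log2 -3.73 ± 0.19 SE, adjusted p = 3.15e-14, edgeR). Fyb1 was the list's only higher call, at 278 ± 13 against 154 CPM (log2 0.89 ± 0.08 SE, adjusted p = 1.84e-09, edgeR). Of the formins, Inf2 was at 147 CPM in lung and 3.91 ± 1.01 CPM in DN3 (log2 -5.24 ± 0.17 SE), Fmnl3 at 122 and 56.4 ± 4.7 CPM, and Diaph3, a relative of Diaph1, rose from 24.5 to 53.1 ± 2.8 CPM (log2 1.12 ± 0.12 SE). Wipf3, a WASP-interacting protein, had 87 to 243 counts in each lung library and 1 count in each DN3 library, so that it too entered the fit only through its lung level. The ratio was 158 (95% exact interval 53.9 to 766, counting error only).

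In the WAVE complex, which drives Arp2/3 at the leading edge, Cyfip1 fell from 76.4 to 23.6 ± 0.8 CPM (log2 -1.69 ± 0.09 SE) while its paralog Cyfip2 was higher in DN3 (425 ± 16 against 346 CPM, log2 0.30 ± 0.08 SE, adjusted p = 0.00116, edgeR), and Abi3 rose from 2.36 to 31.5 ± 1.5 CPM (log2 3.72 ± 0.14 SE). Within Arp2/3 itself, Arpc3 (315 against 74.9 ± 2.8 CPM) and Arpc5 (417 against 139 ± 5 CPM) were lower in DN3, and Arpc1a (46.3 against 81.1 ± 5.6 CPM) and Arpc5l (40.3 against 61.7 ± 6.4 CPM) higher. The beta-thymosins, which hold actin monomers in reserve, were much lower: Tmsb4x fell from 3688 to 179 ± 11 CPM (log2 -4.36 ± 0.14 SE, adjusted p = 7.5e-18, edgeR) and Tmsb10 from 639 to 74.0 ± 2.8 CPM (log2 -3.11 ± 0.11 SE, adjusted p = 1.11e-16, edgeR). Cfl2 (muscle cofilin) and Limk1 (a cofilin kinase) were the 2 higher calls of that list, at 24.7 ± 1.3 against 12.0 CPM and 45.4 ± 2.0 against 31.5 CPM. Actb and Actg1, the cytoplasmic actins, fell by 0.87 and 1.46 on the log2 scale. All 20 genes named in this comparison, Fyb1 and Raph1 included, kept their calls in each of 18 alternatives. For Wipf3 nothing is read from this, since it entered the fit only through its lung level.

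**Figure D5:**
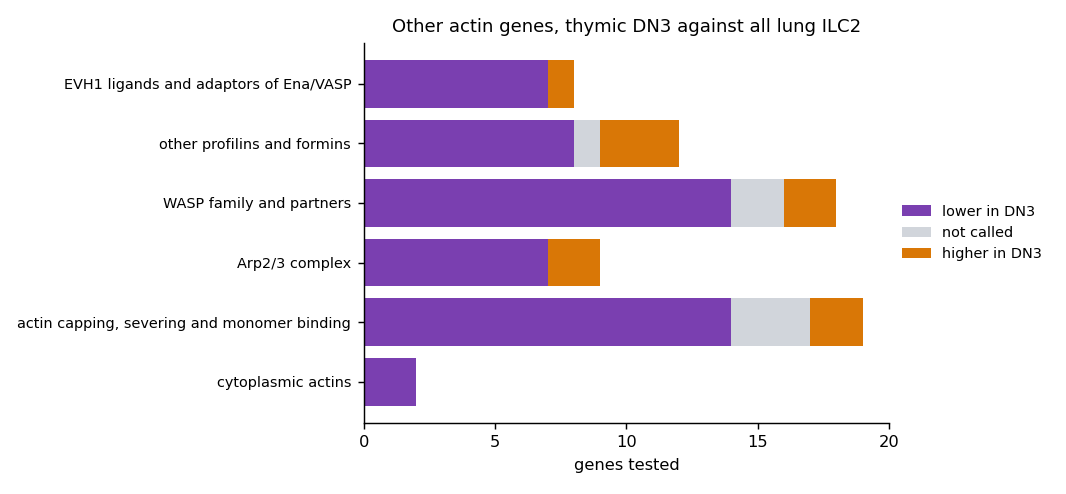
Number of tested genes (horizontal axis) called lower, not called or called higher in DN3 when set against the 8 lung libraries, for 6 lists of actin genes that leave out the 8 members (edgeR, adjusted p under 0.05). Lower calls are the largest part of every list, 52 of 68 genes in all.

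Genes whose pattern over the libraries was most like that of Enah were found by Pearson's r of log2(CPM + 1) among 9830 genes. Over all 11 libraries they were Zeb2 (r = 0.995), a transcription factor, Bmpr1a (0.994), a BMP receptor, Il4 (0.994), the cytokine, Swap70 (0.994), a signalling protein, and Pls3 (0.993), plastin 3. Over the 8 lung libraries they included Zeb2 (0.986), Pls3 (0.982), Cpd (0.976), carboxypeptidase D, and Slc20a1 (0.970), a phosphate transporter. These values are a description, since the libraries of a group share their group, and with it most of the pattern. Zeb2 was at 50.8 ± 2.0 CPM in the ZsGreen-negative group, 75.9 ± 7.3 in ZsGreen-positive and 23.8 ± 1.4 in DN3 cells. Bmpr1a was at 13.05 ± 3.52, 36.04 ± 3.91 and 0.114 ± 0.117 CPM, Il4 at 13.0 ± 3.1, 29.5 ± 5.0 and 0.437 ± 0.094 CPM, and Pls3 at 6.20 ± 0.70, 14.0 ± 3.3 and 0.567 ± 0.190 CPM. By group means all 7 genes named here had the order of Enah, with ZsGreen-positive ILC2 highest and DN3 lowest. Their choice by likeness to Enah favours this order, so nothing is read from it.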

How the data were processed

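Bulk RNA-seq libraries (per the labels' protocols, PicoPure isolation of RNA and an mRNA kit of Watchmaker Genomics) were analysed from the whole-number counts that the authors deposited per gene, in 2 tables with identical lung counts. GRCm39 and DESeq2 are named in the submitters' processing notes. Aligner, counting program, annotation and use of strand: not given in the sources used here. Members, gene lists, designs and alternatives were chosen with earlier results of these data known.

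Counts were tested with edgeR 4.0.16 in R 4.3.3 (TMM scaling, filterByExpr on the groups at its minimum count of 10, robust quasi-likelihood F test), with Benjamini-Hochberg adjustment over all genes tested, at 0.05. The SE given with edgeR values is the absolute log2 fold change divided by the square root of its F statistic. For the lung groups the fit held their 8 libraries and the batch date. For DN3 it held all 11 libraries and group means only, with the lung groups weighted by library number. Both fits were also run on simulated counts with a single spread for all genes, no batch effect and few changed genes. That checks the code only, not how well the fits suit these libraries. CPM are TMM-scaled over all 11 libraries. Lengths and overlaps come from GENCODE M21 (GRCm38), another build than that of the files, and were matched by gene identifier. No transcript of another gene matched a member over at least 300 bases at 95% identity.

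The labels do not say whether replicates are separate animals. The p-values therefore measure only how these libraries spread, and that spread may be technical. Counts of replicates differed by more than sampling noise in all 16 pairs (chi-square per degree of freedom 1.77 to 15.3).

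Named genes were the members, per list up to 2 called genes of smallest p per direction whose higher group had at least 10 CPM (DN3) and up to 1 with at least 5 CPM (lung), and the 5 genes most correlated with Enah over 11 and over 8 libraries. A gene of the latter and a list of actin regulators are not reported here. DESeq2 1.42.0, limma 3.58.1 (voom), other scalings, no filter, a replicate block, a structural marker term, the 2024 batch alone and left-out libraries were the alternatives.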

Additional observations from a re-analysis of the deposited data

How the results depend on the processing

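The 6 members that reached 10 counts in DN3 kept their direction and call in 324 of 324 combinations of gene, DN3 comparison and alternative. The DN3 comparisons come from the same 18 alternative fits and share the DN3 libraries, so these are not separate results. The DN3 minus lung difference ranged from 11.2 to 15.6 percentage points for the Vasp share, from -11.7 to -10.2 for the Evl share and from -0.59 to -0.53 for the log2 formin ratio. Their p was the smallest the libraries allow throughout, and nothing is read from it. The lung values of the 8 members moved by less than the spread between replicates in 134 of 136 combinations of gene and alternative. The exceptions were Pfn2 without ZsGreen-positive library 1 (-0.09) and with the structural term (0.73). Enah stayed between 1.41 and 1.61. The named genes of the actin lists lost their call in 20 of 462 combinations of gene and alternative, all in the lung comparison, and none reversed. The 462 include Wipf3, which entered the DN3 fit only through its lung level, so its kept calls tell nothing.

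The genome-wide counts of lung calls, 323 higher and 300 lower, depended strongly on the setting: they were 580 higher with limma voom, 621 and 460 without the filter, 145 and 153 in the 2024 batch alone and 13 and 37 with the structural term. The cause was not tested. Leaving out a library gave 146 to 471 higher and 140 to 343 lower. The counts that moved by over 1.5 times came without library 5 of the ZsGreen-negative group (146 and 140) and without library 2 (149 and 172) or 3 (148 and 154) of the ZsGreen-positive group. Without ZsGreen-negative library 5 or ZsGreen-positive library 3, the batch term takes up the only 2025 library left. These 2 fits therefore nearly repeat the 2024 batch alone (145 and 153) and are not separate results. All DN3 counts stayed within 1.5 times.

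With the replicate number of the titles as a replicate block in place of batch, the lung counts were 130 and 103, and Enah's log2 difference was 1.41. That block crossed the batches, since library 3 is of 2024 in the ZsGreen-negative and of 2025 in the ZsGreen-positive group. ZsGreen-negative libraries 4 and 5 stood alone in it. In the DN3 comparison the block gave 5423 higher and 6189 lower (5551 and 6374 without it). Same-numbered lung libraries did not deviate together (correlations 0.115, -0.194 and -0.141), nor did every library correlate best with its own number, so the numbers are not taken as pairs. Enah and Pfn2 in DN3 rest on at most 8 and 7 counts per library, which limits the precision of their fold changes.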

Other observations

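Pfn1 varied less among DN3 libraries than any other member in any group, with a coefficient of variation of 0.152% over 572.6 to 574.2 CPM, against 12.5% in ZsGreen-negative and 19.0% in ZsGreen-positive ILC2. The DN3 value rests on 3 libraries with 4073, 5329 and 4899 counts. Counting error alone would give a larger variation than 0.152%, so nothing is read from this closeness. Was, Vasp, Fmnl1 and Diaph1 varied by 1.63 to 6.27% in the lung groups. The adaptor Fyb1 was ordered ZsGreen-negative, ZsGreen-positive, DN3 from lowest to highest group mean (128, 198 and 278 CPM), whereas DN3 had the lowest mean for each of the 8 members.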
